A study of Homo sapiens with 12 samples.

Results

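The transcripts of 36 genes of cholesterol and fatty acid synthesis were followed in A375 cells, an established human melanoma cell line with a BRAF mutation, among 44659 genes in the table of read counts. The members were chosen by name: 5 genes that control sterol regulatory element-binding proteins (SREBPs), 7 enzymes that make and use mevalonate, 11 enzymes that make squalene and sterols, 1 sterol carrier, 4 enzymes of fatty acid synthesis, 5 desaturases and elongases, and 3 targets of the liver X receptors (LXRs). RNA-seq libraries came from 2 experiments of 24 h, each with 3 libraries per group and 12 in all. In the MAPKi experiment, cells received 500 nM vemurafenib, a BRAF inhibitor, together with 500 nM cobimetinib, a MEK inhibitor, and were compared with cells given the solvent DMSO. In the glutamine experiment, cells in glutamine-free medium (Gln-depleted) were compared with cells in control medium (CTRL medium) containing 2 mM glutamine. All groups are the same line in DMEM with fetal bovine serum, which itself carries cholesterol and fatty acids. The MAPKi and DMSO cells also had glutamine. The labels call the material cytoplasmic RNA, taken after lysis with Triton X-100.

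As background, SREBPs are membrane-bound transcription factors of the endoplasmic reticulum. When sterols are scarce, SCAP carries them to the Golgi, where proteases release the part that enters the nucleus and activates genes of sterol and lipid synthesis. When sterols are abundant, INSIG1 and INSIG2 hold SCAP back, and oxysterols switch on LXR targets that export cholesterol or limit its uptake. Acetyl-CoA is the starting unit of both pathways, and in cultured cells glutamine can supply part of its carbon through citrate. SREBPs act together with the factor NF-Y, which binds the letters CCAAT in promoters.

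Parts of 5 promoters are printed to show these letters beside members that moved in different ways: SREBF2 held the only match to the core of a sterol regulatory element, INSIG1 had the largest fall with Gln depletion, HMGCS1 was called lower with Gln depletion, MVK was called lower with MAPKi and held 5 CCAAT boxes, and TM7SF2 had the largest rise with MAPKi. Each stretch of 180 bases ends 36 bases before the RefSeq start site in GRCh38.p14 and is given, 5′ to 3′ on the gene's strand. Capitals mark TCACNCCAC, the sterol regulatory element core, and CCAAT, which reads as ATTGG when it lies on the other strand.
SREBF2 (chr22:41832890-41833069, plus strand): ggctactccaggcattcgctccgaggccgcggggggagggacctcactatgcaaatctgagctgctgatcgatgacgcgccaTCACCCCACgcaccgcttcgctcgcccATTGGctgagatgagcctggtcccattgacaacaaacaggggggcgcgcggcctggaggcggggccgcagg
INSIG1 (chr7:155297663-155297842, plus strand): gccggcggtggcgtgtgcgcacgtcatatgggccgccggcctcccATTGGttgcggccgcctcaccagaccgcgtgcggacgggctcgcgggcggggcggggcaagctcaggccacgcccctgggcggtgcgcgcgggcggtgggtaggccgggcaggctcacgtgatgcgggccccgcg
HMGCS1 (chr5:43313448-43313627, minus strand): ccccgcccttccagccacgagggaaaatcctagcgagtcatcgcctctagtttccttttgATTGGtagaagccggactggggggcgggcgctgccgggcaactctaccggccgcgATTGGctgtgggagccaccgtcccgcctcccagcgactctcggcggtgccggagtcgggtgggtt
MVK (chr12:109573579-109573758, plus strand): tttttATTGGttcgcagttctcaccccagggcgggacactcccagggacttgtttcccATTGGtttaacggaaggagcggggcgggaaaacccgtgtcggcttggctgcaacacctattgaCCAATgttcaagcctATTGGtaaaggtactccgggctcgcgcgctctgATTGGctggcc
TM7SF2 (chr11:65111657-65111836, plus strand): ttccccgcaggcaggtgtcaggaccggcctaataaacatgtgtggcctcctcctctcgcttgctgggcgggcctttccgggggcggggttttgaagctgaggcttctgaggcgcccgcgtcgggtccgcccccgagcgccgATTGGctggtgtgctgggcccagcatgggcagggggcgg

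RefSeq windows, from 250 bases before to 50 bases after the start site, were at hand for 31 of the 36 members. Both motifs were searched on both strands, and the core in SREBF2 shares no base with a CCAAT box. CCAAT stood in 20 of the 31 windows (64.5%), against 5760 of 15843 windows of protein-coding genes (36.4%). At least 2 CCAAT boxes stood in 14 windows of members (45.2%), against 12.5% of all coding windows, and at least 3 in 6 (19.4%), against 4% of all. MVK and NSDHL had 5 boxes each and MSMO1 had 4. In NSDHL, the CCAAT at bases 138 to 142 of the window and the ATTGG at bases 141 to 145 overlap, and both were counted. TCACNCCAC stood in 1 of the 31 windows (3.23%), that of SREBF2, against 186 of 15843 (1.17%). Sterol regulatory elements vary in sequence, and a window without these letters says only that these letters are not in it. These shares are descriptions without a test.

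Between 31056296 and 40071368 reads were counted per library. The treatments left their marks on lists of known targets: 6 of 6 MAPK targets were called lower with MAPKi, DUSP6 from 4613, 4584 and 4318 normalized read counts in DMSO to 2.01, 8.93 and 7.08 in MAPKi libraries, and 5 of 5 tested stress targets were called higher with Gln depletion, TRIB3 from 2525, 2756 and 1927 to 22085, 21207 and 20178. SESN2, the other stress target, had 0.987 normalized counts or less in every library and was not tested. Each list also moved with the other treatment. Gln depletion gave 0 calls among the 6 MAPK targets. DUSP6 and SPRY4 were higher there against no change (1.13 and 0.84, adjusted p = 0.0207 and 0.0229). DUSP6 was called higher with the replicate block (adjusted p = 0.0282 against 1.5-fold). MAPKi called the stress targets TRIB3 and CHAC1 lower and ATF3 higher (-1.13, -2.93 and 2.36). Melanocyte markers differed in level. SOX10 lay between 11988 and 30814 normalized counts over all libraries, and MITF, PMEL and S100B at 201 or more. MLANA and TYR were low: in DMSO libraries they had 23.6 to 35.7 and 29.7 to 35.7. In the glutamine experiment MLANA, at 1.97 to 27.1, was under the limit for testing, and TYR had 10.9 to 28.1. Of 6 markers of other cell types, KRT5, KRT14, PTPRC and PECAM1 were under the limit for testing, KRT5 at 0 and PTPRC at 18.2 or less. The other two, PDGFRB and COL1A1, mark mesenchymal cells such as fibroblasts. PDGFRB was called higher with MAPKi, from 129, 113 and 92.6 normalized counts in DMSO to 413, 412 and 390 (1.86 ± 0.12, adjusted p = 4.96e-06), and COL1A1 was higher against no change (0.83 ± 0.20, adjusted p = 0.00403). Neither passed with Gln depletion (0.71 and -1.40, adjusted p = 0.115 and 0.0928), but against no change both did with the replicate block (0.029 and 0.0176). The 6 markers summed to 150.4 to 178.3 in DMSO, 457.2 to 486.8 in MAPKi, 144.5 to 250.9 in CTRL medium and 251.7 to 316.8 in Gln-depleted libraries. Of the melanocyte markers, 4 of 6 tested were called higher and 1 lower with MAPKi, and 1 of 5 tested, MITF, was called lower with Gln depletion. Whether these changes have a part in the results below was not tested.

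With MAPKi, 13 of the 35 members tested were called lower and 4 higher. The falls covered cytosolic acetyl-CoA supply and steps from acetyl-CoA to farnesyl diphosphate (ACLY, ACAT2, MVK, IDI1 and FDPS), squalene and later sterol steps (FDFT1, SQLE, MSMO1 and HSD17B7), the fatty acid synthase FASN, the sterol carrier STARD4 and the LXR targets ABCA1 and MYLIP. The rises were the SREBP genes SREBF1 and SREBF2, the sterol reductase TM7SF2 and the elongase ELOVL6. A member was called when edgeR's quasi-likelihood test placed its change beyond 1.5-fold, with the p adjusted by Benjamini-Hochberg over all 12593 coding genes whose normalized counts averaged 10 or more, and a limit of 0.05. Of all genes tested, 18.4% were called lower and 17.2% higher by this rule. Against no change, 20 members were lower and 9 higher, where 38.8% and 39.3% of all genes were, and 6 members did not pass. The median log2 fold change was -0.39 over the members and 0.0090 over all genes tested. ABCG1, with at most 1 read in a library, was not tested. As shares of the 35 members these were 37.1% called lower and 11.4% called higher, on a background in which most genes moved. The share called higher was below the 17.2% of all genes. In bulk RNA, fewer cells with a transcript and less of it per cell cannot be told apart. SREBF2 was no longer called without MAPKi replicate 1 (adjusted p = 0.11), DMSO replicate 2 (0.103) or DMSO replicate 3 (0.0737), and FADS1 was called higher without DMSO replicate 1. ABCA1 fell under the limit of 10 counts without DMSO replicate 3 and was then not tested. With the further rows of FDFT1, ACACA and LSS added to the first, FDFT1 was not called and 12 members were called lower. With DESeq2, 7 members were called lower and 3 higher. FDFT1, IDI1, FDPS, STARD4, ABCA1, MYLIP and SREBF2 were then not called (for SREBF2, adjusted p = 0.161 against 1.5-fold). In a fit of all 12 libraries 5 members were called lower.

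With Gln depletion, 11 of the 35 members tested were called lower and 0 higher. The falls took in the SREBP regulators INSIG1 and SREBF2, the mevalonate enzymes ACAT2 and HMGCS1, the sterol enzymes SQLE, LSS, HSD17B7, EBP and DHCR7, the desaturase SCD and the LXR target MYLIP. Of 12512 genes tested, 2.41% were called lower and 3.14% higher by the same test, against 31.4% and 0% of the members. Against no change, 19 members were lower, where 9.76% of all genes were, and 0 were higher, where 8.7% of all genes were. No member was called higher by edgeR without a block or batch term in all 6 libraries, and DESeq2 called 1, NSDHL. DESeq2 called 8 members lower and did not call SREBF2, EBP and MYLIP (adjusted p = 0.0691, 0.181 and 0.0635 against 1.5-fold). At an unadjusted p under 0.05, 1 member, again NSDHL, was higher. The median log2 fold change was -0.96 over the members and -0.034 over all genes tested.

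In this experiment, libraries with the same replicate number deviated together, and replicate 1 belongs to another experimental batch than replicates 2 and 3. With the replicate number as a block, 19 members were called lower and 1, NSDHL, higher, where 8.37% and 8.18% of all genes were. In direction alone, 28 of the 35 members were lower in 3 of 3 pairs with the same number, as were 36.7% of all genes tested. Within experimental batch 2 alone, 14 members were called lower, and with the batch as a term 18 were. Batch 1 holds 1 library per group and gives no test. The count without the block rests on few libraries: it was 4 without Gln-depleted replicate 2, 5 without Gln-depleted replicate 3, 7 without CTRL medium replicate 1, 3 without CTRL medium replicate 2 and 4 without CTRL medium replicate 3. INSIG1, ACAT2 and DHCR7 kept their call whichever library was left out, while SREBF2, SQLE, LSS, HSD17B7, EBP and MYLIP lost it in each of these 5 fits. Without Gln-depleted replicate 3, NSDHL was called higher. With scaling factors computed over all genes with reads in place of the tested genes, 8 members were called lower, and SREBF2, LSS and EBP were not.

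**Figure D1:**
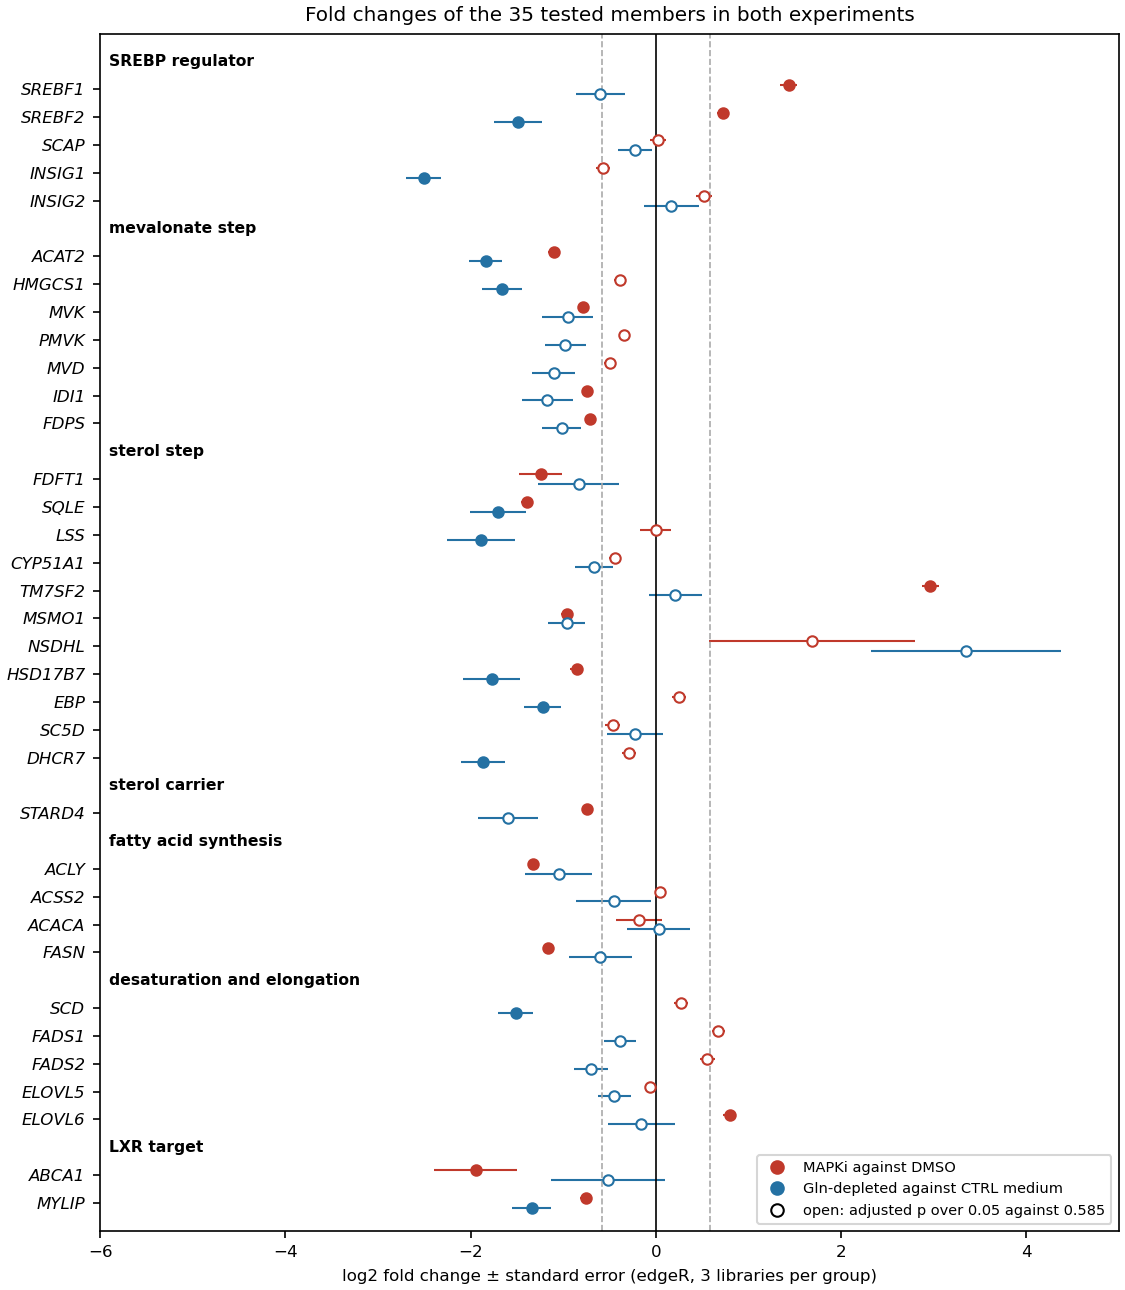
Log2 fold changes with their standard errors (horizontal bars, edgeR, 3 libraries per group) of the 35 tested members, grouped by role, with MAPKi in red and Gln depletion in blue. Filled points passed the test against a 1.5-fold change (dashed lines), and the points of Gln depletion lie left of 0 for most members, while those of MAPKi lie on both sides.

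The effects of the 2 treatments differed for 16 members by edgeR's quasi-likelihood test of the difference over all 12 libraries, where 40.4% of 12627 genes differed, 19.9% with a more positive and 20.5% with a more negative fold change under MAPKi. All 16 members had the more positive fold change with MAPKi and 0 the more negative. No member was more negative at an unadjusted p under 0.05, nor by DESeq2. With the replicate block, 24 members differed, 22 of them more positive with MAPKi and 2, ACLY and FASN, more negative. Of all genes, 60.9% differed in that fit, 29.5% more positive and 31.4% more negative. The others gained were MVD, FDPS, SQLE, ACSS2, ELOVL5 and ELOVL6. Leaving out 1 library at a time gave between 12 and 15 members. Against a 1.5-fold difference, 11 of the 16 passed. The 16 differences ranged from 0.59 ± 0.21 (SE) on the log2 scale for MYLIP to 2.78 ± 0.31 for TM7SF2. The 2 experiments were sequenced in different batches, but each effect is measured against controls of its own batch.

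**Figure D2:**
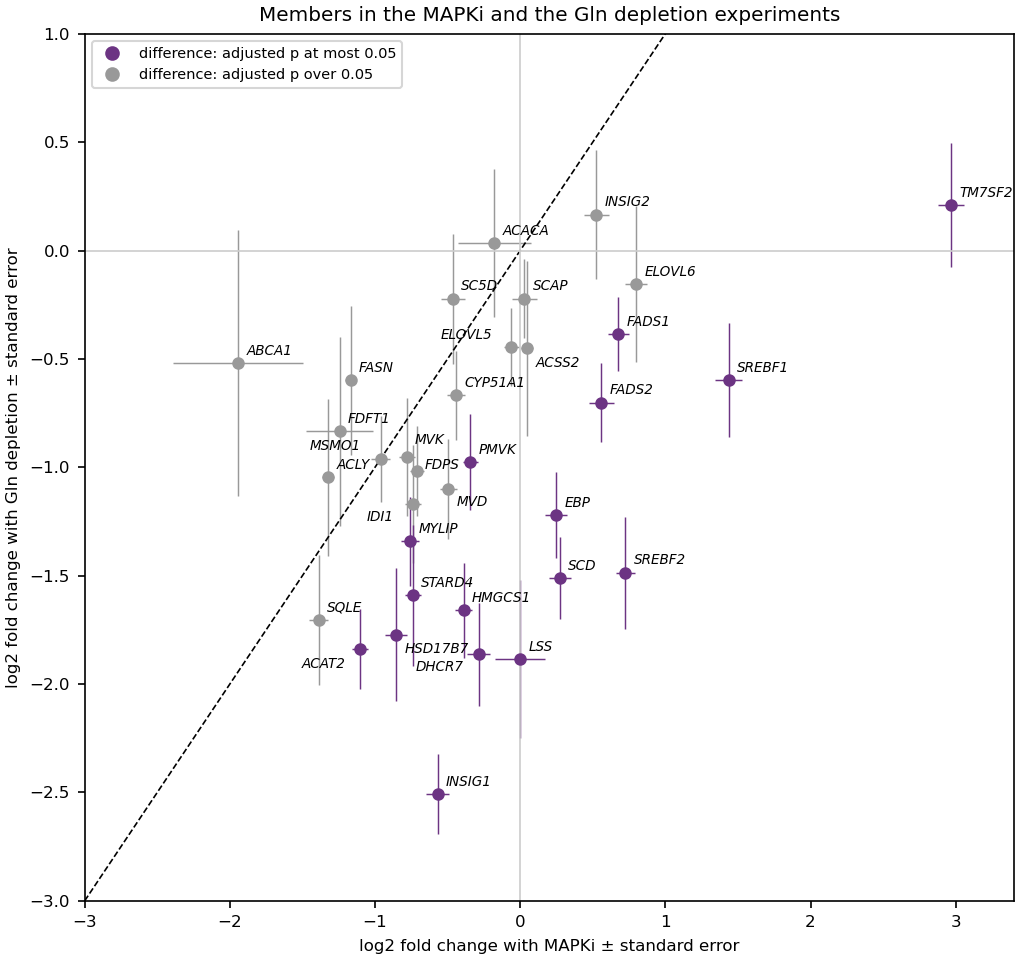
Log2 fold change with MAPKi (horizontal axis) against that with Gln depletion (vertical axis) of 34 members, each with standard errors as bars. NSDHL, whose counts varied from library to library, is left out. The 16 purple points, which passed the test of a difference, lie below the dashed line of equal change.

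Among the SREBP regulators, the genes for the SREBP precursors rose with MAPKi, and SREBF2 fell with Gln depletion. SREBF1 encodes the form that chiefly drives fatty acid genes, and its normalized read counts were 9839, 8441 and 7853 in DMSO and 26301, 22328 and 22027 in MAPKi libraries. All 3 MAPKi libraries lay above all DMSO libraries, with a log2 fold change of 1.44 ± 0.096 (SE, adjusted p = 1.21e-05). In the glutamine experiment SREBF1 had 9150, 7889 and 8194 in CTRL medium and 7926, 4272 and 4481 in Gln-depleted libraries. There, Gln-depleted replicate 1 lay within the range of the controls and the other 2 below it (-0.60 ± 0.26, adjusted p = 0.147 against no change, 0.0107 with the replicate block). SREBF2 encodes the form that chiefly drives cholesterol genes, with 12153, 10777 and 11113 in DMSO and 20467, 18071 and 17743 in MAPKi libraries, a rise of 0.73 ± 0.068 (adjusted p = 0.0275). With Gln depletion it went from 14118, 11180 and 9431 to 5467, 3336 and 3588, -1.49 ± 0.26 (adjusted p = 0.0375). The groups did not overlap in either experiment, and the effects of the 2 treatments differed by 2.23 ± 0.30 (adjusted p = 0.00014).

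INSIG1, a retention protein that is itself a classical SREBP target, fell most of all members with Gln depletion. It had 10059, 10942 and 9952 normalized counts in CTRL medium and 1799, 2062 and 1584 in Gln-depleted libraries. The Gln-depleted mean was 17.6% of the control mean, with a log2 fold change of -2.51 ± 0.18 (adjusted p = 0.00151). With MAPKi, INSIG1 went from 7936, 6894 and 6590 to 5233, 4677 and 4532, which passed the test against no change (-0.57 ± 0.079, adjusted p = 0.000139) but not that against 1.5-fold. The difference between the treatments was 1.95 ± 0.17 (adjusted p = 7.56e-06). Its relative INSIG2 had 647 to 1134 normalized counts in the MAPKi experiment and was higher with MAPKi against no change (0.52 ± 0.088, adjusted p = 0.000462), and its groups overlapped in the glutamine experiment, at 554 to 1224 (0.17, adjusted p = 0.724). SCAP, the escort of the SREBPs, had 5727 to 6975 normalized counts in the MAPKi and 6244 to 9052 in the glutamine experiment, with overlapping groups in both (0.028 and -0.22, adjusted p = 0.778 and 0.416 against no change).

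**Figure D3:**
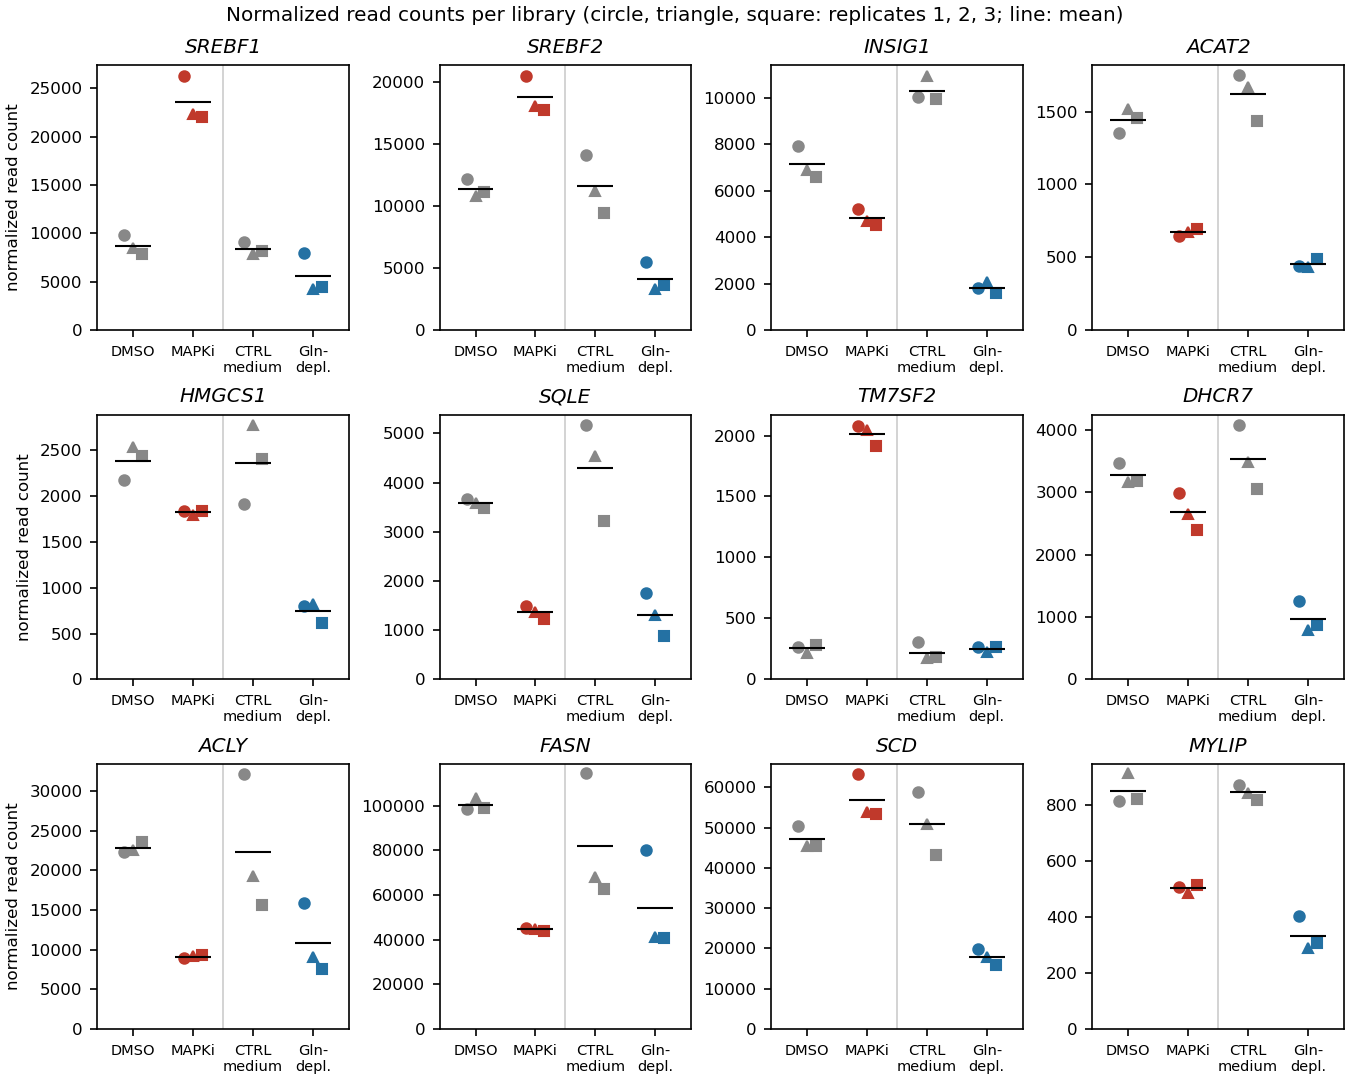
Normalized read counts (vertical axes, from 0, scaled within each experiment) of 12 members in each library, with circles, triangles and squares for replicates 1, 2 and 3 and a line at the mean of each group. TM7SF2 is high only in the 3 MAPKi libraries shown, INSIG1 and SCD are low in the 3 Gln-depleted libraries, and replicate 1 of both groups of the glutamine experiment lies above replicates 2 and 3 for ACLY and FASN.

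All 7 mevalonate members were lower against no change in both experiments, 4 of them called against 1.5-fold with MAPKi and 2 with Gln depletion. With the replicate block all 7 were called lower with Gln depletion. ACAT2, the cytosolic thiolase that joins 2 acetyl-CoA units, had 1352, 1516 and 1459 in DMSO and 646, 676 and 691 in MAPKi libraries (-1.10 ± 0.058, adjusted p = 7.19e-06), and 1753, 1669 and 1436 in CTRL medium and 438, 434 and 487 in Gln-depleted libraries (-1.84 ± 0.18, adjusted p = 0.00424). The groups stood apart in both, and the fall with Gln depletion was the larger by 0.75 ± 0.17 (adjusted p = 0.00384). HMGCS1, the synthase that makes HMG-CoA, went from 1917, 2781 and 2401 in CTRL medium to 803, 822 and 621 in Gln-depleted libraries (-1.66 ± 0.22, adjusted p = 0.0129). With MAPKi it went from 2176, 2541 and 2440 to 1837, 1796 and 1835, a smaller fall (-0.39 ± 0.058, adjusted p = 0.000206 against no change), and the difference was 1.28 ± 0.20 (adjusted p = 0.000388). The HMGCS1 call with Gln depletion was lost without CTRL medium replicate 2 (adjusted p = 0.0543) or 3 (0.0541).

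Among the kinases, MVK, which phosphorylates mevalonate, had 1087, 1017 and 1124 in DMSO and 639, 630 and 609 in MAPKi libraries, a clear separation (-0.78 ± 0.056, adjusted p = 0.00265). Its values were 1410, 944 and 858 in CTRL medium and 716, 453 and 491 in Gln-depleted libraries (-0.95 ± 0.27, adjusted p = 0.0475 against no change, and 0.0269 against 1.5-fold with the block). PMVK, the next kinase, had 1065, 1036 and 1079 in DMSO and 802, 829 and 872 in MAPKi libraries (-0.34 ± 0.051), and 999, 764 and 975 in CTRL medium and 444, 385 and 562 in Gln-depleted libraries (-0.98 ± 0.22, adjusted p = 0.0227 against no change, 0.0254 against 1.5-fold with the block). Its effects differed by 0.65 ± 0.23 (adjusted p = 0.041). MVD, the decarboxylase that follows, lay between 714 and 797 normalized counts in MAPKi libraries, under the 1033 to 1119 of the DMSO libraries (-0.50 ± 0.059), and from 366 to 561 in Gln-depleted and 857 to 1167 in CTRL medium libraries (-1.10 ± 0.23, adjusted p = 0.00778 against 1.5-fold with the block).

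The last steps before squalene showed the same order of groups. IDI1, which isomerises isopentenyl diphosphate, had 1971, 2260 and 2040 in DMSO and 1219, 1265 and 1270 in MAPKi libraries (-0.74 ± 0.057, adjusted p = 0.00897). Its values were 1391, 2621 and 2498 in CTRL medium and 826, 1093 and 973 in Gln-depleted libraries (-1.17 ± 0.27, adjusted p = 0.0243 against no change, 0.00948 against 1.5-fold with the block), with both replicates 1 the lowest of their group. FDPS, which makes farnesyl diphosphate, had 4281, 4621 and 4691 in DMSO and 2693, 2842 and 2761 in MAPKi libraries (-0.71 ± 0.048, adjusted p = 0.00975). With glutamine varied it had 4951, 3608 and 3753 in CTRL medium and 2351, 1769 and 1962 in Gln-depleted libraries (-1.02 ± 0.21, adjusted p = 0.0157 against no change, 0.00715 against 1.5-fold with the block). Neither IDI1 nor FDPS passed the test of a difference between the treatments (adjusted p = 0.205 and 0.288), but with the block FDPS did (0.0167).

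Of the 11 members that make squalene and turn it into cholesterol, 4 were called lower and 1 higher with MAPKi, and 5 were called lower with Gln depletion. FDFT1, 1 of the 4, was not called with its further row added. Of all genes tested, 18.4% were called lower and 17.2% higher with MAPKi, and 2.41% lower with Gln depletion. SQLE, the epoxidase that is a rate-limiting step beyond mevalonate, fell in both: from 3661, 3587 and 3485 in DMSO to 1497, 1371 and 1236 in MAPKi libraries (-1.39 ± 0.065, adjusted p = 1.28e-06), and from 5166, 4535 and 3217 in CTRL medium to 1762, 1317 and 882 in Gln-depleted libraries (-1.71 ± 0.30, adjusted p = 0.0327). No library of a treated group reached the controls, and the difference between the treatments did not pass (0.33 ± 0.33, adjusted p = 0.454, and 0.0248 with the block). HSD17B7, a ketoreductase of the demethylation complex, likewise went from 625, 608 and 570 to 351, 335 and 311 with MAPKi (-0.85 ± 0.074, adjusted p = 0.00221) and from 840, 657 and 588 to 293, 158 and 159 with Gln depletion (-1.77 ± 0.31, adjusted p = 0.0306). Its difference was 0.93 ± 0.34 (adjusted p = 0.0476). MSMO1, the methyl sterol oxidase of the same complex, had 1884, 1794 and 1840 in DMSO and 1043, 890 and 900 in MAPKi libraries (-0.96 ± 0.065, adjusted p = 0.000121), and 2483, 2559 and 1954 in CTRL medium and 1230, 1343 and 1022 in Gln-depleted libraries (-0.96 ± 0.20, adjusted p = 0.0168 against no change, 0.0117 against 1.5-fold with the block). Its fold changes in the 2 experiments lay 0.015 ± 0.20 apart.

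DHCR7, EBP and LSS were called lower with Gln depletion and were not called with MAPKi. DHCR7, which makes cholesterol from 7-dehydrocholesterol, had 4075, 3481 and 3056 in CTRL medium and 1255, 790 and 871 in Gln-depleted libraries, 27.5% of the control mean (-1.86 ± 0.24, adjusted p = 0.00944). Its MAPKi libraries, at 2991, 2652 and 2398, lay just under the DMSO libraries, at 3472, 3160 and 3173 (-0.29 ± 0.078, adjusted p = 0.00787 against no change). EBP, the sterol isomerase, fell from 2403, 2055 and 1700 to 982, 835 and 827 with Gln depletion (-1.22 ± 0.20, adjusted p = 0.0402), and had 1761, 1615 and 1603 in DMSO and 2213, 1831 and 1869 in MAPKi libraries (0.25 ± 0.075, adjusted p = 0.0138 against no change). LSS, which closes squalene epoxide into lanosterol, had 841, 587 and 483 in CTRL medium and 263, 130 and 124 in Gln-depleted libraries (-1.88 ± 0.37, adjusted p = 0.0405). In the MAPKi experiment its groups overlapped, with 729, 513 and 561 in DMSO and 457, 652 and 690 in MAPKi libraries (adjusted p = 0.992 against no change). The effects of the treatments differed for all 3, by 1.59 ± 0.27 for DHCR7, 1.48 ± 0.22 for EBP and 1.89 ± 0.45 for LSS (adjusted p = 0.000683, 0.000258 and 0.00581).

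TM7SF2, a sterol reductase that acts after lanosterol demethylation, had the largest rise of the members with MAPKi. It had 267, 218 and 286 normalized counts in DMSO and 2075, 2043 and 1912 in MAPKi libraries, a mean 7.82 times as high (2.97 ± 0.09, adjusted p = 1.81e-08). In the glutamine experiment the groups overlapped, at 304, 172 and 181 in CTRL medium and 263, 228 and 270 in Gln-depleted libraries (0.21 ± 0.29, adjusted p = 0.635 against no change). The difference between the treatments was 2.78 ± 0.31 (adjusted p = 3.87e-05). LBR, another protein with the same reductase activity that was looked at after its values were seen, went the other way with MAPKi, from 5465, 4867 and 4951 in DMSO to 3545, 3109 and 3159 (-0.64 ± 0.065, adjusted p = 1.57e-05 against no change and 0.199 against 1.5-fold). LBR was lower with Gln depletion as well, from 5558, 6942 and 5205 in CTRL medium to 3885, 3586 and 3324. That change was -0.71 ± 0.185 (adjusted p = 0.0347 against no change and 0.421 against 1.5-fold).

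The remaining sterol members were smaller or less certain. CYP51A1, lanosterol demethylase, and SC5D, a sterol desaturase, were lower with MAPKi against no change (-0.44 ± 0.06 and -0.47 ± 0.083, adjusted p = 0.000119 and 0.000676). CYP51A1 had 4105 to 4824 normalized counts in MAPKi against 5915 to 6220 in DMSO libraries, and SC5D 1740 to 2162 against 2472 to 2875. With Gln depletion CYP51A1 had 4309 to 5505 against 6388 to 9206 in CTRL medium (-0.67 ± 0.20, adjusted p = 0.0569 against no change, 0.00224 with the block), and the groups of SC5D, at 1824 to 3888 over the 6 libraries, overlapped. FDFT1, squalene synthase, had 61.1, 75.2 and 102 normalized counts in DMSO and 35.2, 34.6 and 31 in MAPKi libraries (-1.24 ± 0.23, adjusted p = 0.00924), and 116, 84.4 and 56.5 in CTRL medium and 53.3, 64.1 and 26.3 in Gln-depleted libraries, where the groups overlapped. Each Gln-depleted library was lower than the control of its own number, by log2 ratios of -1.12, -0.395 and -1.09 (adjusted p = 0.21 against no change, 0.0433 with the block). Another row of the table for FDFT1 holds 1458 to 3350 reads per library, more than the first. With both rows added, FDFT1 was no longer called with MAPKi (-0.56, adjusted p = 0.651). NSDHL, a decarboxylase of the demethylation complex, had 4.29 to 126 normalized counts in the MAPKi and 4.48 to 198 in the glutamine experiment, with 170, 198 and 9.55 in Gln-depleted and 23.4, 9.04 and 4.48 in CTRL medium libraries (3.35 ± 1.03, adjusted p = 0.0569 against no change, 0.00976 against 1.5-fold with the block). Its values overlapped between the groups of both experiments.

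STARD4, which carries cholesterol between membranes, was lower in both treated groups. It had 2281, 2409 and 2311 in DMSO and 1295, 1404 and 1493 in MAPKi libraries (-0.74 ± 0.056, adjusted p = 0.00836). In CTRL medium it had 1374, 3223 and 2547 and in Gln-depleted libraries 645, 932 and 794 (-1.59 ± 0.32, adjusted p = 0.0564 against 1.5-fold, just outside the limit, and 0.00207 with the block). The replicates 1 were the lowest of both groups. The effects differed by 0.86 ± 0.32 (adjusted p = 0.0494), which is also close to the limit.

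Among the 4 enzymes of fatty acid synthesis, ACLY and FASN fell with MAPKi with little spread between libraries, and no member was called with Gln depletion without the block. ACLY, the citrate lyase that makes cytosolic acetyl-CoA, had 22301, 22584 and 23549 in DMSO and 8879, 9195 and 9272 in MAPKi libraries, 40% of the control mean (-1.32 ± 0.043, adjusted p = 1.38e-07). FASN, fatty acid synthase, had 98749, 103662 and 98796 in DMSO and 45282, 44804 and 44066 in MAPKi libraries (-1.17 ± 0.038, adjusted p = 2.53e-07). In the glutamine experiment ACLY had 32119, 19258 and 15678 in CTRL medium and 15869, 9063 and 7520 in Gln-depleted libraries, and FASN had 114885, 67969 and 62581 and 80377, 41097 and 40711. For both genes Gln-depleted replicate 1 lay above CTRL medium replicate 3, so the groups overlapped. Within replicate numbers the log2 ratios were -1.02, -1.09 and -1.06 for ACLY and -0.52, -0.73 and -0.62 for FASN, so each Gln-depleted library was lower than its own control. Without the block, the adjusted p against no change was 0.078 for ACLY (-1.05 ± 0.36) and 0.251 for FASN (-0.60 ± 0.34). With the block it was 0.000327 and 0.00249, and against a 1.5-fold change it was 0.00407 and 0.49. The test of a difference between the treatments gave -0.26 ± 0.42 for ACLY and -0.55 ± 0.41 for FASN (adjusted p = 0.659 and 0.309, and 0.026 and 0.000863 with the block).

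ACSS2, which makes acetyl-CoA from acetate, had 1358 to 1443 normalized counts over the 6 libraries of the MAPKi experiment (0.049, adjusted p = 0.284 against no change) and 671 to 2154 in the glutamine experiment (-0.45 ± 0.40, adjusted p = 0.459, 0.0247 with the block). ACACA, the acetyl-CoA carboxylase, had 244 to 432 and 253 to 583, with overlapping groups in both (-0.18 ± 0.25 and 0.034 ± 0.34). Another row of the table for ACACA holds 30 to 777 reads per library. With both rows added, its log2 fold change with Gln depletion was -0.91 (adjusted p = 0.151 against no change).

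**Figure D4:**
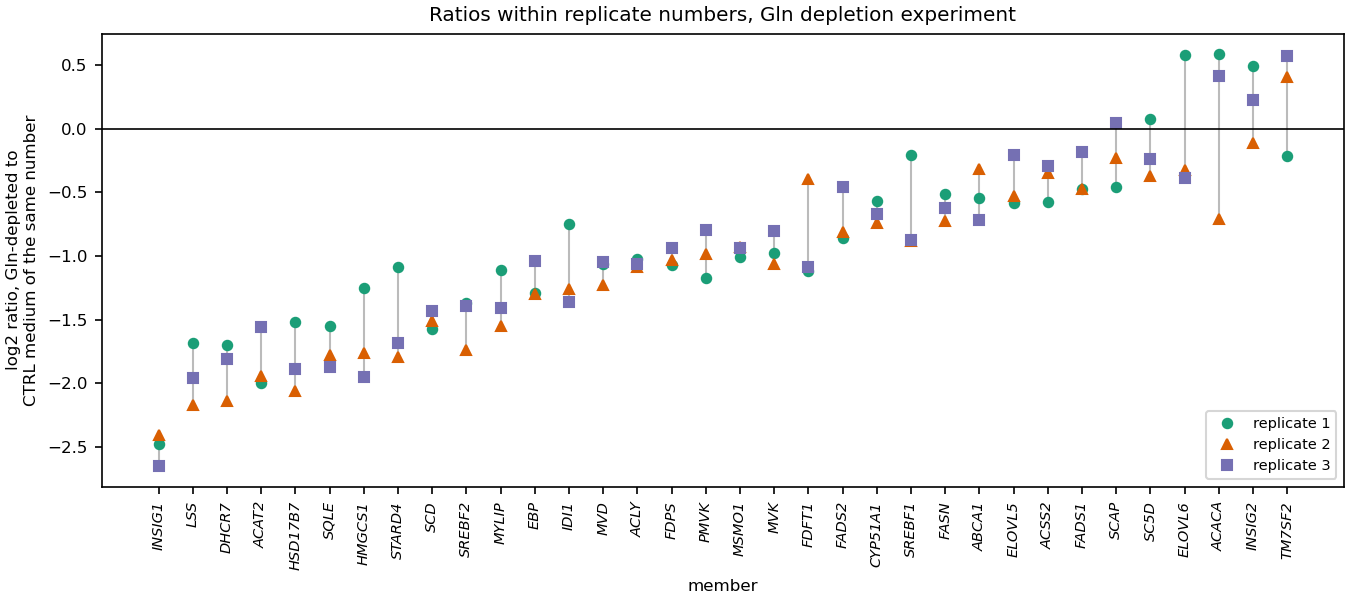
Log2 ratio of each Gln-depleted library to the CTRL medium library of the same replicate number (vertical axis) for 34 members, ordered by their mean, with circles, triangles and squares for replicates 1, 2 and 3. For ACLY the 3 ratios lie within -1.02 and -1.09, although the levels of its libraries span both groups, and INSIG1 has the lowest ratios. NSDHL is left out.

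SCD, FADS1 and FADS2 had positive fold changes with MAPKi and negative ones with Gln depletion. SCD, which puts a double bond into saturated fatty acids, had 58934, 50822 and 43131 in CTRL medium and 19831, 17804 and 15974 in Gln-depleted libraries (-1.51 ± 0.19, adjusted p = 0.0127). In the MAPKi experiment it had 50477, 45458 and 45340 in DMSO and 63381, 53991 and 53510 in MAPKi libraries, a small rise (0.27 ± 0.073, adjusted p = 0.00721 against no change). The difference between the treatments was 1.80 ± 0.21 (adjusted p = 5.18e-05). The SCD call with Gln depletion was lost without Gln-depleted replicate 2 (adjusted p = 0.0651) or CTRL medium replicate 2 (0.0525). FADS1 and FADS2, the desaturases of polyunsaturated fatty acids, which lie next to each other and overlap in the annotation, shared this order. FADS1 had 9111, 7683 and 8328 in DMSO and 14387, 13127 and 12650 in MAPKi libraries (0.68 ± 0.072, adjusted p = 2.12e-05 against no change, 0.0999 against 1.5-fold), and 10692, 9518 and 8401 in CTRL medium and 7687, 6837 and 7395 in Gln-depleted libraries (-0.38 ± 0.17, adjusted p = 0.152 against no change, 0.028 with the block). FADS2 had 1083, 895 and 970 in DMSO and 1599, 1372 and 1370 in MAPKi libraries (0.56 ± 0.085, adjusted p = 0.000241 against no change), and 1240, 1158 and 1151 in CTRL medium and 683, 660 and 838 in Gln-depleted libraries (-0.70 ± 0.18, adjusted p = 0.0348 against no change). Their effects differed by 1.08 ± 0.19 and 1.28 ± 0.19 (adjusted p = 0.000806 and 0.00027).

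ELOVL6, which lengthens saturated fatty acids, was called higher with MAPKi, from 2596, 2393 and 2192 to 4520, 4040 and 3926 (0.80 ± 0.073, adjusted p = 0.00664). Its groups overlapped in the glutamine experiment, at 1294, 3553 and 3107 in CTRL medium and 1930, 2839 and 2378 in Gln-depleted libraries. The change there was -0.15 ± 0.36 (adjusted p = 0.791 against no change), and CTRL medium replicate 1 was the lowest of the 6 libraries. The difference between the treatments was 0.96 ± 0.38 (adjusted p = 0.0635, and 0.0112 with the block). ELOVL5, which lengthens polyunsaturated fatty acids, had 8139 to 9175 normalized counts in the MAPKi experiment with overlapping groups (-0.06, adjusted p = 0.308), and 6020 to 7153 in Gln-depleted against 7957 to 10336 in CTRL medium libraries (-0.45 ± 0.18, adjusted p = 0.118, 0.0185 with the block, against no change).

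Of the LXR targets, MYLIP, a ubiquitin ligase that removes lipoprotein receptors, fell in both. It had 817, 916 and 822 in DMSO and 507, 488 and 515 in MAPKi libraries (-0.76 ± 0.065, adjusted p = 0.00975), and 874, 845 and 821 in CTRL medium and 406, 289 and 308 in Gln-depleted libraries (-1.34 ± 0.21, adjusted p = 0.0295). The groups were apart in both, and the effects differed by 0.59 ± 0.21 (adjusted p = 0.0398). ABCA1, which exports cholesterol, was near the limit of detection, with 11.8, 22.8 and 27 normalized counts in DMSO and 6.04, 3.35 and 6.19 in MAPKi libraries (-1.94 ± 0.45, adjusted p = 0.0127). Its values were 11.7, 38.2 and 37.6 in CTRL medium and 7.9, 30.6 and 22.7 in Gln-depleted libraries, with overlapping groups. ABCG1, its relative, had 1 read in 1 DMSO and 1 Gln-depleted library and 0 in the other 10.

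Per kilobase of exon, the levels of the members spread widely. In DMSO libraries FASN had 10772 ± 303 (SD, n = 3) normalized counts per kilobase, SCD 8978 ± 559, ACLY 4380 ± 126, ELOVL5 2265 ± 128 and INSIG1 1956 ± 193. In CTRL medium SCD had 9716 ± 1507, FASN 8777 ± 3086, ACLY 4292 ± 1660 and INSIG1 2827 ± 149. FASN, SCD and ACLY were the 3 highest in both, and FASN and SCD differed by less than their spread in CTRL medium. At the low end stood TM7SF2 with 75.4 ± 10.3 in DMSO, ACACA with 27.4 ± 7.65 and FDFT1 with 15.6 ± 4.09. Lower still were NSDHL with 6.91 ± 4.14, ABCA1 with 1.81 ± 0.692 and ABCG1 with 0.0539 ± 0.0933. The further rows of ACACA and FDFT1 are not in these levels. The 7 mevalonate members lay between 119 and 1219 in DMSO libraries, FDPS the highest and MVK the lowest.

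A list of 36 further genes of these pathways was looked at in the same fits. Of the 34 tested, 5 were called lower and 4 higher with MAPKi, and 2 lower and 2 higher with Gln depletion. These are 14.7% lower and 11.8% higher with MAPKi, below the shares of all genes given above, and 5.88% each with Gln depletion, a share that rests on few genes. The median log2 fold changes were 0.26 and -0.24. With MAPKi, ELOVL2, an elongase of polyunsaturated fatty acids, fell from 1976, 1738 and 1630 in DMSO to 118, 104 and 114 (-3.99 ± 0.094, adjusted p = 4.2e-09). ME1, a source of NADPH for lipid synthesis, MID1IP1, an activator of acetyl-CoA carboxylase, TMEM97, a sterol-regulated membrane protein, and ACSL3, an acyl-CoA synthetase, were called lower as well (-1.48, -1.23, -0.89 and -0.81 on the log2 scale). ELOVL7 rose from 251, 239 and 252 in DMSO to 1383, 1124 and 1163 (2.31 ± 0.089, adjusted p = 9.48e-08). CPT1A, which brings fatty acids into mitochondria for oxidation, ELOVL4, an elongase of very long chains, and GPAM, which starts glycerolipid synthesis, also rose (1.40, 0.99 and 0.91). With Gln depletion LPCAT3, a phospholipid acyltransferase and LXR target, went from 2993, 2084 and 1990 in CTRL medium to 928, 798 and 910 (-1.42 ± 0.22, adjusted p = 0.0264). SLC25A1, the mitochondrial citrate carrier that feeds ACLY, went from 6047, 3998 and 3697 to 1866, 1376 and 1976 (-1.40 ± 0.25, adjusted p = 0.0466). MID1IP1 rose there, from 1200, 997 and 1117 to 2875, 2812 and 2792 (1.36 ± 0.17, adjusted p = 0.0149), the opposite of its change with MAPKi, and FADS3, a relative of FADS1 and FADS2, rose from 974, 807 and 966 to 3109, 2342 and 1806 (1.40 ± 0.24, adjusted p = 0.0384).

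Set against the promoter windows shown above, 9 of the 11 members called lower with Gln depletion had a window, and 9 of these 9 held CCAAT. Among all genes called lower with Gln depletion, 100 of 229 windows held it (43.7%), and among genes called in neither direction 36.8% did. Of the 22 other members with a window, 11 held CCAAT. With MAPKi, 7 of 9 windows of members called lower held it, against 41.6% of the windows of all genes called lower, and 2 of 4 windows of members called higher and 11 of 18 windows (61.1%) of members not called held it too. SREBF2, with the sterol regulatory element core, was called higher with MAPKi and lower with Gln depletion. This comparison was added after the values were seen, rests on few windows and was not tested.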

How the data were processed

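A375 RNA-seq libraries fell into 4 groups of 3. According to the submitters' processing notes, the authors trimmed reads with fastp 0.20.1, aligned them to GRCh38.p13 with HISAT2 2.2.1 and counted those on exons with HTSeq 0.13.5; the deposited table holds raw counts of 44659 genes, without normalization. The paper's RNA-seq methods describe total RNA, the labels cytoplasmic RNA. The strand setting is not given in the sources used here, and 23 members overlap another RefSeq gene, 8 of them a protein-coding one, so some reads may be shared or lost. FDFT1, ACACA and LSS have further rows, which were kept apart.

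Symbols were matched to RefSeq genes (GRCh38.p14): 36524 by symbol, 513 by an older symbol, 5082 as further copies, and 2540 not matched; 19376 were protein-coding. Within each experiment, coding genes whose normalized counts averaged 10 or more were fitted with edgeR 4.0.16 in R 4.3.3 (TMM factors on these genes, 0.919 to 1.06 over all libraries; quasi-likelihood fit with treatment as the only term), and p-values were adjusted by the Benjamini-Hochberg method. Calls used a test against a 1.5-fold change (glmTreat, log2 threshold rounded), single values a test against no change (glmQLFTest). The difference between the experiments was a contrast over 12 libraries. The paper used DESeq2, run here as version 1.42.0 as an alternative. Normalized counts are counts scaled to the mean effective library size of their experiment, so levels are not comparable between experiments. Levels per kilobase used the union of exons in GENCODE v44. The fitting script was tested on simulated data.

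The paper describes the MAPKi RNA-seq as done in triplicate, and the labels put replicate 1 of the glutamine experiment in another experimental batch. Whether the other libraries of a group came from separate cultures is not stated, so p-values measure the spread between these libraries, which may be technical. Same-numbered libraries of the glutamine experiment deviated together (correlations of 0.585, 0.441 and 0.386 across genes), so block values are given for members where they change a call. Counts over 31056296 per library make counting error small for most members.

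The members and lists were chosen with earlier results of these data known. Values per library are given for members called in either experiment, or differing between the experiments with a fold change beyond 1.5 in either direction, and ranges for the others; further pathway genes are named where called. The order of filtering and scaling was settled after counts of calls under both orders had been seen. Motifs were counted in RefSeq promoter windows with Python 3.11.15 and pandas 2.3.3, and figures drawn with matplotlib 3.10.9.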

Additional observations from a re-analysis of the deposited data

How the results depend on the processing

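With DESeq2, 7 members were called lower and 3 higher with MAPKi, and 8 lower and 1 higher with Gln depletion. Without a fold-change threshold 20 were lower and 9 higher with MAPKi, and 19 lower with Gln depletion; with a threshold of 1 these were 3, 2 and 3. At an adjusted p of 0.01, 3 were lower with Gln depletion. In a fit of all 12 libraries, whose spread is shared, 5 were lower and 2 higher with MAPKi and 17 lower with Gln depletion. With the replicate block, 19 were lower and 1 higher with Gln depletion, and 2 members were more negative with MAPKi than with Gln depletion; with the experimental batch as a term 18 were lower and 1 higher. Leaving out 1 library gave 3 to 11 members lower and 0 to 1 higher with Gln depletion, and 0 to 1 more negative with MAPKi (NSDHL, without MAPKi replicate 2). In the MAPKi experiment same-numbered libraries deviated together only weakly (correlations of 0.0687, 0.058 and 0.0562), although 6 of 6 libraries correlated best with their own number. The block there left 13 lower and gave 5 higher, FADS1 added. For SREBF2 the adjusted p against 1.5-fold was 0.00115 with the block and 0.0275 without it. Leaving out 1 library turned the direction of 8 log2 fold changes, whose ranges were -0.0726 to 0.0932 for SCAP, -0.129 to 0.155 for LSS and -1.17 to 2.24 for NSDHL with MAPKi, and -0.0323 to 0.316 for INSIG2, -0.407 to 0.071 for SC5D, -0.801 to 0.0904 for ACSS2, -0.204 to 0.436 for ACACA and -0.434 to 0.112 for ELOVL6 with Gln depletion. LSS with MAPKi was also 0.0201 with a mean count of at least 100 and 0.00277 with all 12 libraries, and ACACA with Gln depletion -0.219 in batch 2 alone and -0.911 with copies summed. None of these reversed values passed the test against no change, and the cause was not tested. Copies were summed, and factors computed over all genes, as alternatives chosen after seeing the data. Counts were lowest for ABCG1, ABCA1, NSDHL and FDFT1.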
